A study of Mus musculus with 6 samples.

Results

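Wnt ligands, their receptors and their secreted antagonists were examined in SVEC4-10 cells, an immortalized mouse line labelled endothelial, after 24 hours with nattokinase and without it. The set held every protein-coding gene of GENCODE M21 whose symbol begins with Wnt, Fzd, Sfrp or Dkk and a digit, to which Lrp5, Lrp6, Axin2 and Lef1 were added, and all 41 such genes were found by Ensembl identifier among the 55536 genes listed. They comprised 19 ligands, 10 Frizzled receptors, 2 co-receptors, 8 secreted antagonists and 2 nuclear or feedback components. One group of 3 libraries came from cells given nattokinase, a fibrin-degrading protease of Bacillus subtilis at a dose that the sources used here do not state, and the other group of 3 from untreated cells, and the cells of both groups were grown in medium with fetal bovine serum. No label states that the libraries of a group were separate cultures, so p-values measure the spread between these libraries, which may be technical.

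Wnt proteins are secreted, lipid-modified ligands that bind Frizzled receptors. Together with the co-receptors Lrp5 or Lrp6 they stabilise beta-catenin, which joins TCF and LEF factors on target genes such as Axin2, and other Wnt proteins act through Frizzled receptors on cell polarity and movement. Sfrp proteins bind Wnt ligands outside the cell, and Dkk proteins such as Dkk1 bind Lrp5 and Lrp6. In blood vessels Frizzled-4 is known as the receptor through which the ligand Norrin shapes retinal capillaries.

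Nattokinase-treated cells held less mRNA of 2 receptors, Fzd4 and Fzd7, and of 2 ligands, Wnt5a and Wnt4, with means of 0.723 to 0.829 of the control mean. The promoters of the called genes that have an entry in the RefSeq table are shown side by side with that of Wnt11, a ligand of similar level that did not pass the test. Whether the called genes share a regulator was not tested. Each runs from 250 bases before to 50 after a RefSeq start on GRCm38.p6, 5′ to 3′ on the plus strand, and capitals mark GC boxes (GGGCGG), boxes of the letters CCAAT, and the core motif of TCF and LEF factors (CTTTGAT), each searched on both strands. Wnt5a has no entry. The RefSeq start lay 11 bases from the GENCODE gene start for Fzd4, 277 for Fzd7, 146 for Wnt4 and 0 for Wnt11. The windows therefore do not sit alike, and that of Fzd7 ends before the GENCODE start.
Fzd4, chr7:89404116-89404415: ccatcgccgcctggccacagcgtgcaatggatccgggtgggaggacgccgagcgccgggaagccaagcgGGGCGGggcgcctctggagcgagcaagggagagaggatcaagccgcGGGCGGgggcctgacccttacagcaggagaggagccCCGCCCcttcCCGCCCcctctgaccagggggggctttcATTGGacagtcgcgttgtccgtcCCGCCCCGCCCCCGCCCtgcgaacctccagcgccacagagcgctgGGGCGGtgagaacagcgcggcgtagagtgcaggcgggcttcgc
Fzd7, chr1:59481897-59482196: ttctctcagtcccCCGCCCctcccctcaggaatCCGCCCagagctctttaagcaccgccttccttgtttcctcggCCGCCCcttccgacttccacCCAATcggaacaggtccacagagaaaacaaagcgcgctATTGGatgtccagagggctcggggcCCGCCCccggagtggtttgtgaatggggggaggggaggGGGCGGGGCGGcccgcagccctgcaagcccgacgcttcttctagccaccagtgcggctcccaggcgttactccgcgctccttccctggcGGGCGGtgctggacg
Wnt4, chr4:137277385-137277684: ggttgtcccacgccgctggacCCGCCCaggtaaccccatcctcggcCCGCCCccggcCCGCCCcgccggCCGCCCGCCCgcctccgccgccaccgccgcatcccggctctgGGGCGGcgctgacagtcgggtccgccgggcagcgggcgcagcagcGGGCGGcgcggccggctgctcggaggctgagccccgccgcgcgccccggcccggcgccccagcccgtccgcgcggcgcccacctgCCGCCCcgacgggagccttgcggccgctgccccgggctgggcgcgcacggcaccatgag
Wnt11, chr7:98834862-98835161: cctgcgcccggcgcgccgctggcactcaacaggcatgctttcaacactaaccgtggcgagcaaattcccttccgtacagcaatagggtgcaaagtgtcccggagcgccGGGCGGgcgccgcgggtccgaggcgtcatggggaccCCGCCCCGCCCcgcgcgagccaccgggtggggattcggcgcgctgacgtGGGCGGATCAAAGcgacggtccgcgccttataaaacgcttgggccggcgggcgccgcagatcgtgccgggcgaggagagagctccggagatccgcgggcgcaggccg
The Fzd4 window held 8 GC boxes and 1 CCAAT box, the Fzd7 window 7 and 2, the Wnt4 window 8 and 0, and the Wnt11 window 4 and 0, where overlapping GC boxes were counted separately. The TCF and LEF core was found once in the Wnt11 window, next to a GC box without overlap, and its letters were not found in the other 3 windows. The 32851 promoters counted do not cover every chromosome, so a gene of the set that is missing from the counts may still have an entry. In these 32851 promoters, GC boxes were present in 35.7%, CCAAT boxes in 37.4% and the TCF and LEF core in 3.73%. The counted promoters included 33 promoters of 27 genes of the set. Of the 33 promoters, 25 had a GC box, 12 a CCAAT box and 2 the TCF and LEF core. Counted by gene, in at least 1 promoter, 21 of these genes had a GC box, 12 a CCAAT box and 2, Wnt11 and Wnt5b, the TCF and LEF core. GC content had a median of 67.3% over those 33 promoters and 52.7% over all counted promoters. A match is a description of letters and shows no binding.

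The libraries held 17525090 to 18341370 reads assigned to genes with nattokinase and 15044778 to 16496433 in control, and protein-coding genes took 98.3% to 98.4% of them with nattokinase and 95.4% to 96.7% in control. That share moved with treatment, and all 4 calls of the set held after rescaling to protein-coding totals. Most defining markers of the labelled cell type were scarce or absent: of 12 pan-endothelial genes 0 reached the filter on low values, their summed level was 1.09 to 1.23 FPKM with nattokinase and 0.856 to 1.63 FPKM in control, and 4 of them (Cldn5, Emcn, Erg and Tie1) had no read in any library. Of 10 fibroblast and mural markers, summing to 1849 to 1920 FPKM with nattokinase and 2067 to 2215 FPKM in control, 6 were tested and Col3a1 fell. The 4 lymphatic endothelial markers summed to 109.7 to 114.7 FPKM with nattokinase and 125.01 to 136 FPKM in control, of which Prox1 and Lyve1 had 0 reads and 2 were tested. Flt4, a receptor of lymphatic growth factors, had 10.6 to 10.8 FPKM with nattokinase and 10.6 to 11.8 FPKM in control and did not pass, and Pdpn, which fibroblasts also express, had 99.1 to 104.01 FPKM with nattokinase and 113 to 125 FPKM in control and fell. Of 4 leukocyte markers Cd68 was tested and rose, at 2.42 ± 0.35 FPKM with nattokinase and 1.19 ± 0.33 FPKM in control (SD, n = 3 each), while Ptprc, Cd3e and Itgam had 0 reads in every library. Of 4 epithelial markers Krt8 was tested and did not pass. The part of these shifts in the results below was not tested, and in bulk RNA fewer cells of a type and less RNA per cell cannot be told apart.

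Of the 41 genes, 15 were expressed at 1 FPKM or more in at least 3 libraries, the filter for testing. FPKM are fragments scaled by exon length and by the library's total, so levels can be compared between genes, though only roughly. The length is that of all merged exons and not of the transcripts in use. The 15 were 5 ligands, 8 Frizzled receptors and both co-receptors, and no secreted antagonist, Axin2 or Lef1 was among them. Of the 26 others, 4 had at least 10 reads in at least 3 libraries, 17 had fewer and 5 had 0 reads throughout. The highest ligand, Wnt5a, averaged 8.06 FPKM over the 6 libraries. Of the 10 Frizzled genes 5 averaged more, as did both co-receptors, and the other 5 averaged less.

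**Figure D1:**
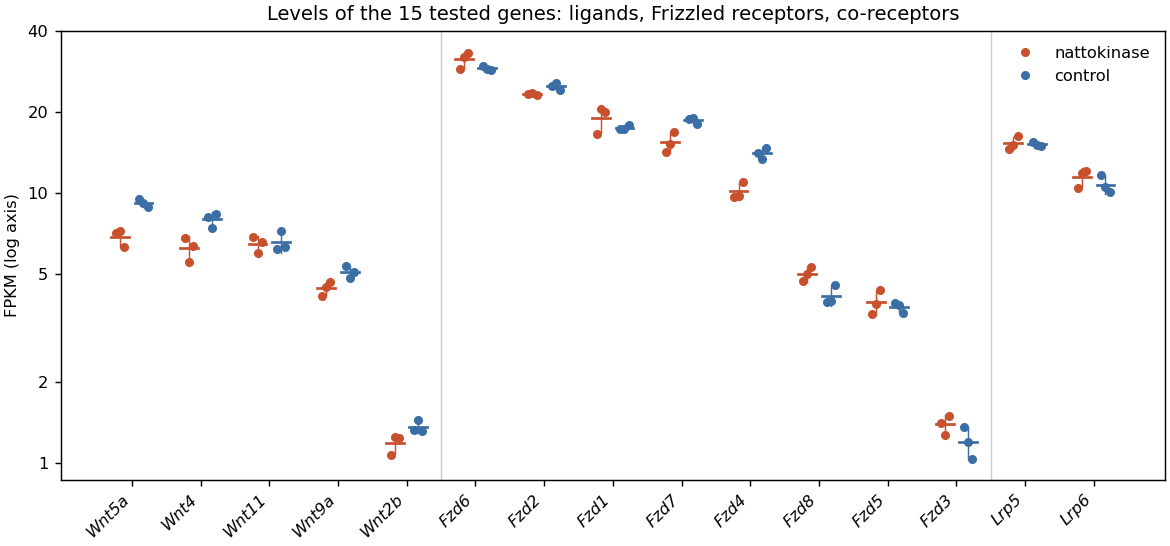
FPKM on a log axis for the 15 tested genes in each of 3 nattokinase and 3 control libraries (points), with group means (horizontal lines) and SD (vertical lines). The nattokinase points of Fzd4, Fzd7, Wnt5a and Wnt4 lie below all control points, and Fzd6 has the highest level in both groups.

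In limma, a linear model fitted to log2(FPKM + 1) of all 10913 genes past the filter with Benjamini-Hochberg adjustment, 4 of the 15 were lower with nattokinase, where 3.24% of all tested genes were lower and 8.85% were called in either direction. None of the 15 was called higher, where 5.61% of all tested genes were. At an unadjusted p under 0.05 limma had 6 of the 15, of which 1, Fzd8, was higher, beside 22.9% of all tested genes. Limma-voom on the reads recovered from the FPKM values tested 19 genes of the set, of which the same 4 were lower, beside 4.32% of genes, and 1 was higher, Sfrp2, which lay under the filter. In 7 of the 15 all nattokinase libraries lay below all control libraries, beside 11.4% of all tested genes, and in 1 they lay above, beside 17.4%, so that 8 did not overlap, beside 28.8%. The median log2 fold change was -0.01 over the 15 and 0.01 over all tested genes. All limma log2 fold changes given here are differences of log2(FPKM + 1). For scarce genes they are smaller in size than the ratio of the FPKM values implies.

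Among the ligands, Wnt5a, which is best known for signalling without beta-catenin, fell. It had 7.13, 7.27 and 6.31 FPKM in nattokinase libraries, against 9.57, 9.18 and 8.89 FPKM in control libraries. The groups did not overlap, and nattokinase replicate 3 was the lowest library. The mean was 6.90 ± 0.52 FPKM with nattokinase and 9.21 ± 0.34 FPKM in control (SD, n = 3 each), a ratio of 0.750 and a log2 fold change of -0.37 (SE 0.063, 95% interval -0.51 to -0.23, limma adjusted p = 0.0058). The gene lies on chromosome 14, 28504750 to 28527448 of GRCm38, plus strand, and 358 bases of its exons overlap the antisense gene Gm2670, which had at most 5 reads per library. The call held without any 1 library, with adjusted p of 0.013 to 0.027, and with every gene tested, whatever its level, the adjusted p was 0.053.

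Wnt4, a ligand known from kidney and reproductive tract development, also fell. It had 6.85, 5.54 and 6.40 FPKM in nattokinase libraries, against 8.19, 7.46 and 8.40 FPKM in control libraries. The groups did not overlap, and the lowest value was that of nattokinase replicate 2. The mean was 6.26 ± 0.67 FPKM with nattokinase and 8.02 ± 0.49 FPKM in control (SD, n = 3 each), with a log2 fold change of -0.32 (SE 0.076, 95% interval -0.49 to -0.15, limma adjusted p = 0.031). The call was lost without nattokinase replicate 2 (limma adjusted p = 0.106), nattokinase replicate 3 (0.079), control replicate 1 (0.061) or control replicate 3 (0.099). Wnt4 lies on chromosome 4, 137277489 to 137299726, plus strand.

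The other 3 tested ligands did not pass. Wnt11, another ligand linked to cell movement, had 6.86, 6.01 and 6.62 FPKM in nattokinase libraries and 6.19, 7.23 and 6.30 FPKM in control libraries. The groups overlapped, and the 95% interval of its log2 fold change ran from -0.17 to 0.15. Its exons share 364 bases with Gm8398. Wnt9a had 4.16, 4.47 and 4.70 FPKM in nattokinase libraries and 5.37, 4.83 and 5.12 FPKM in control libraries, without overlap, at a log2 fold change of -0.17 (95% interval -0.31 to -0.02, limma adjusted p = 0.15). Wnt2b was the lowest of them, at 1.07, 1.2496 and 1.23 FPKM in nattokinase libraries and 1.32, 1.44 and 1.31 FPKM in control libraries, also without overlap, at -0.11 (95% interval -0.30 to 0.07, limma adjusted p = 0.47).

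The order of the ligands was read from their ranges over libraries, which do not measure bias between genes. In nattokinase libraries Wnt5a (6.31 to 7.27 FPKM), Wnt4 (5.54 to 6.85 FPKM) and Wnt11 (6.01 to 6.86 FPKM) overlapped. In control libraries the same 3 genes did not overlap, with Wnt5a at 8.89 to 9.57, Wnt4 at 7.46 to 8.40 and Wnt11 at 6.19 to 7.23 FPKM. Wnt9a lay below those 3 in all 6 libraries. The FPKM of the 19 ligands summed to 26.2 ± 0.76 with nattokinase and 31.1 ± 0.24 in control (SD, n = 3 each). Within that sum Wnt11 made up 24.8% ± 0.96 with nattokinase and 21.1% ± 1.93 in control, and Wnt5a made up 26.4% ± 2.37 with nattokinase and 29.6% ± 0.88 in control.

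Among the receptors, Fzd4 fell most. Fzd4 had 9.73, 9.79 and 11.05 FPKM in nattokinase libraries, against 14.08, 13.4 and 14.8 FPKM in control libraries. The groups did not overlap, and nattokinase replicate 3 was the highest of the treated libraries. The mean was 10.2 ± 0.75 FPKM with nattokinase and 14.1 ± 0.67 FPKM in control (SD, n = 3 each), a ratio of 0.723 and a log2 fold change of -0.43 (SE 0.062, 95% interval -0.57 to -0.29, limma adjusted p = 0.0023). The call held in all 16 alternatives tried, with adjusted p of at most 0.037. Fzd4 lies on chromosome 7, 89404355 to 89413134, plus strand.

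Fzd7, a receptor abundant in embryonic and stem cells, fell less. It had 14.3, 15.2 and 16.95 FPKM in nattokinase libraries, against 18.9, 19.04 and 18.04 FPKM in control libraries. The groups did not overlap, and nattokinase replicate 3 came nearest to the controls. The mean was 15.5 ± 1.35 FPKM with nattokinase and 18.7 ± 0.55 FPKM in control (SD, n = 3 each), with a log2 fold change of -0.26 (SE 0.062, 95% interval -0.40 to -0.12, limma adjusted p = 0.031). Leaving out any library but nattokinase replicate 3 ended the call, with limma adjusted p of 0.055 to 0.104. Fzd7 lies on chromosome 1, 59482424 to 59486955, plus strand.

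The most abundant receptor was Fzd6, which in mice orients hair follicles. It had 29.04, 31.98 and 33.3 FPKM in nattokinase libraries and 29.8, 28.96 and 28.8 FPKM in control libraries, so the groups overlapped (95% interval of the log2 fold change -0.02 to 0.22). It shares 152 bases of exon with Gm26704, which had 1 to 6 reads. Fzd2, a receptor for Wnt5a, came next, at 23.4, 23.6 and 23.2 FPKM in nattokinase libraries and 25.03, 25.7 and 24.1 FPKM in control libraries. Those groups did not overlap, and the log2 fold change was -0.09 (95% interval -0.19 to 0.01, limma adjusted p = 0.28). Fzd1 had 16.6, 20.6 and 20.02 FPKM in nattokinase libraries and 17.4, 17.3 and 17.9 FPKM in control libraries. Its nattokinase replicate 1 lay below all controls and replicates 2 and 3 above them, and the log2 fold change was 0.11 (95% interval -0.06 to 0.27).

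Of the scarcer receptors, Fzd8 had 4.71, 4.995 and 5.32 FPKM in nattokinase libraries, against 3.93, 3.98 and 4.57 FPKM in control libraries. Its groups did not overlap, and its log2 fold change of 0.22 (95% interval 0.06 to 0.38) had an adjusted p of 0.089 in limma and 0.051 in limma-voom. Fzd5, needed for blood vessels of the mouse yolk sac and placenta, had 3.56 to 4.38 FPKM with nattokinase and 3.59 to 3.90 FPKM in control. Fzd3, which guides axons, had 1.27 to 1.49 FPKM with nattokinase and 1.03 to 1.36 FPKM in control. Both overlapped between the groups, with 95% intervals of the log2 fold change of -0.12 to 0.21 for Fzd5 and -0.08 to 0.33 for Fzd3. Fzd5 shares 1233 bases of exon with Gm38058, which had at most 3 reads.

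The Frizzled genes kept their order between treatments at the top, where every Fzd6 value lay above every Fzd2 value and every Fzd2 value above every Fzd1 value. In control libraries Fzd7 lay above Fzd1 and Fzd1 above Fzd4. In nattokinase libraries the ranges of Fzd7 and Fzd1 overlapped (14.3 to 16.95 and 16.6 to 20.6 FPKM), and Fzd7 lay above Fzd4. Within each of these 3 libraries Fzd1 lay above Fzd7, the opposite of the order in each control library. The margin in control replicate 3 was narrow, with Fzd7 at 18.04 and Fzd1 at 17.92 FPKM, and Fzd1 did not pass the test. Summed over the 10 Frizzled genes, the level was 110.2 ± 6.61 FPKM with nattokinase and 113.8 ± 0.83 FPKM in control (SD, n = 3 each). Within it Fzd4 made up 9.24% ± 0.41 with nattokinase and 12.4% ± 0.63 in control, and Fzd7 14.04% ± 0.50 with nattokinase and 16.4% ± 0.41 in control. Fzd6 made up 28.5% ± 0.28 with nattokinase and 25.7% ± 0.31 in control. These shares do not depend on how libraries were scaled against each other, but a share also moves when another gene of the sum does.

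**Figure D2:**
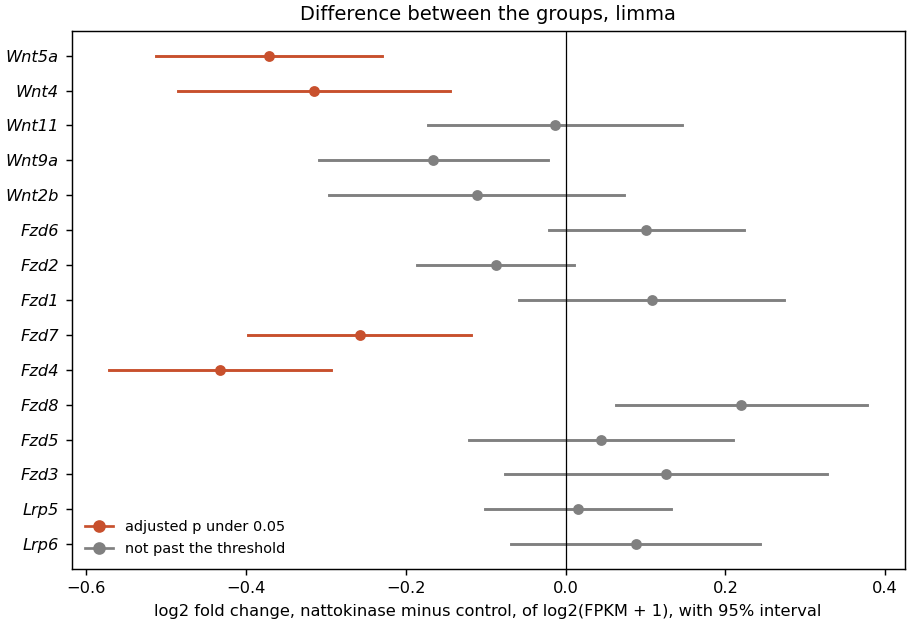
Log2 fold change of nattokinase over control on the log2(FPKM + 1) scale (points) with 95% intervals (lines) from limma for the 15 tested genes, ligands on top, then Frizzled receptors, then co-receptors. Red marks the 4 genes past the threshold, Wnt5a, Wnt4, Fzd7 and Fzd4, all on the negative side.

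The co-receptors, single-pass proteins that pair with Frizzled when a Wnt binds, overlapped between the groups. Lrp5 had 14.6, 15.2 and 16.3 FPKM in nattokinase libraries and 15.5, 15.1 and 15.02 FPKM in control libraries. Lrp6 had 10.5, 11.9 and 12.1 FPKM in nattokinase libraries and 11.7, 10.5 and 10.1 FPKM in control libraries. The 95% intervals of their log2 fold changes ran from -0.10 to 0.13 for Lrp5 and from -0.07 to 0.24 for Lrp6.

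None of the 8 secreted antagonists reached the filter. Sfrp4 had 53, 41 and 37 reads in nattokinase libraries and 48, 38 and 52 reads in control libraries, and the groups overlapped. Sfrp2, an antagonist that fibroblasts secrete, had 25, 33 and 32 reads in nattokinase libraries, against 8, 14 and 11 reads in control libraries. Its groups did not overlap, at 0.776 ± 0.12 FPKM with nattokinase and 0.324 ± 0.10 FPKM in control (SD, n = 3 each), a ratio of 2.40. With a filter of 0.5 FPKM in 3 libraries limma called Sfrp2 higher (log2 fold change 0.42, adjusted p = 0.045), where 4.78% of genes were called higher and 2.75% lower. No control library reached 0.5 FPKM, so Sfrp2 met that filter only through the nattokinase libraries where it is high, and the call is no support for a change. Limma-voom on reads called it higher too (adjusted p = 0.017), with a filter of 10 reads in 3 libraries that the nattokinase libraries alone would meet, where 6.09% of genes were, whereas without any filter limma did not call it (adjusted p = 0.13). Exons of Sfrp2 share 347 bases with the antisense gene Gm26771, which had at most 4 reads. The other antagonists were near or at the counting limit: Sfrp1 had 1 to 6 reads per library, Dkk3 0 to 3, Dkk2 0 to 2, Dkk1 and Dkk4 0 or 1, and Sfrp5 0 in all 6, which allows up to 3 reads or 0.086 to 0.10 FPKM, for counting error only.

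Among the ligands under the filter, Wnt5b, the paralog of Wnt5a, was the most abundant. It had 25, 27 and 26 reads in nattokinase libraries and 10, 14 and 21 reads in control libraries. The groups did not overlap, and limma-voom gave a log2 fold change of 0.64 (SE 0.32, adjusted p = 0.24). Wnt2 had 0, 0 and 3 reads in nattokinase libraries and 7, 9 and 2 reads in control libraries, so that the groups overlapped. Wnt6 had 1 to 12 reads per library, Wnt7b 4 to 13, Wnt10a and Wnt3 0 to 7, Wnt1 and Wnt10b 0 to 2, and Wnt16 and Wnt8b 0 or 1. Wnt3a, Wnt7a, Wnt8a and Wnt9b had 0 reads in all 6 libraries, which allows 3 reads each, from 0.036 FPKM for Wnt9b to 0.11 FPKM for Wnt8a. The receptors Fzd9 and Fzd10 also lay under the filter, Fzd9 with 13, 6 and 17 reads in nattokinase libraries and 8, 5 and 8 reads in control libraries, and Fzd10 with 0 to 2 reads.

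**Figure D3:**
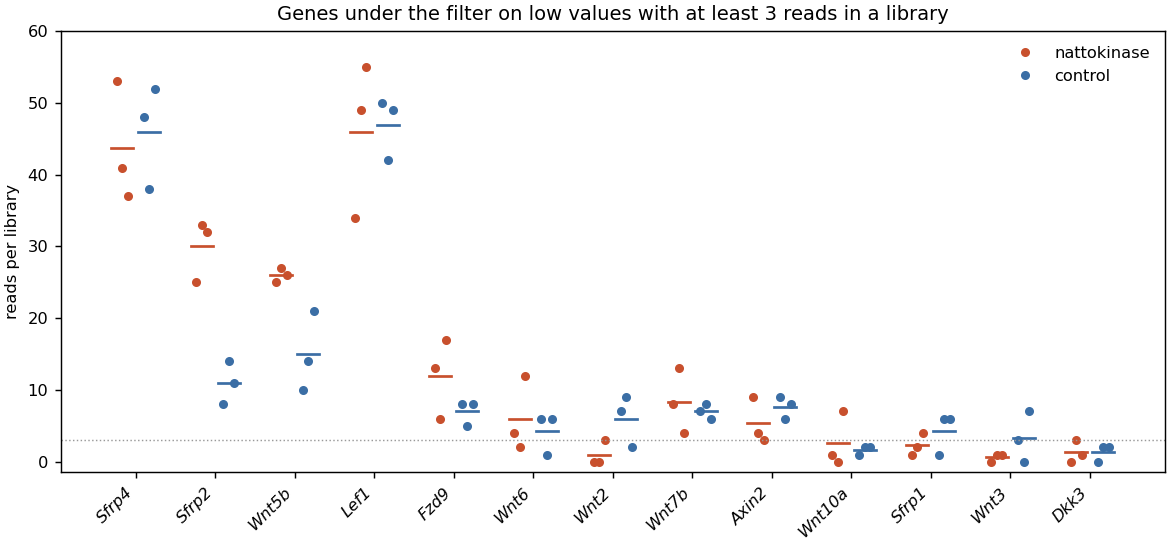
Reads per library of the 13 genes under the filter on low values that had at least 3 reads in a library, in 3 nattokinase and 3 control libraries (points) with group means (lines), and a dotted line at 3 reads. Sfrp2 and Wnt5b show all nattokinase points above all control points, and the remaining genes overlap.

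Axin2 and Lef1, which report on beta-catenin signalling in many tissues, were scarce in both groups. Axin2 had 9, 4 and 3 reads in nattokinase libraries and 9, 6 and 8 reads in control libraries, a mean of 0.054 ± 0.032 FPKM with nattokinase and 0.087 ± 0.014 FPKM in control (SD, n = 3 each). Lef1 had 34, 49 and 55 reads in nattokinase libraries and 50, 42 and 49 reads in control libraries, with a limma-voom log2 fold change of -0.25 (SE 0.23, adjusted p = 0.57). Both overlapped between the groups, and at 3 to 9 reads only a large change of Axin2 would be detectable.

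Other genes of the pathway were taken from 7 lists, which hold 96 distinct genes. Of the 67 that were tested 9 rose and 4 fell, beside 5.61% higher and 3.24% lower of all tested genes, and their median log2 fold change was -0.002. The calls of 7 of these 13 genes, Myc, Jag1, Tcf7, Daam2, Csnk1e, Draxin and Fgf18, held when any 1 library was left out. In those fits the filter stayed the one set on all 6 libraries. Draxin reached 1 FPKM in the 3 control libraries only, so a filter set anew without a control library would have excluded it. Its calls in those fits are therefore no support. Tcf7 and 6 others stand in more than 1 list.

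Of 14 tested genes known as beta-catenin targets, out of 26 listed, 6 rose and 1 fell, beside 5.61% higher and 3.24% lower of all tested genes. Their median log2 fold change was 0.09, and that of all tested genes 0.01. The list was fixed with earlier results of these data known, so these counts are a description. Myc, the growth-promoting transcription factor, had 37.02, 32.4 and 31.8 FPKM in nattokinase libraries, against 22.1, 24.5 and 25.4 FPKM in control libraries (log2 fold change 0.47, limma adjusted p = 0.0026). Jag1, a Notch ligand, had 7.73, 6.97 and 7.02 FPKM in nattokinase libraries, against 5.41, 5.06 and 4.92 FPKM in control libraries (log2 fold change 0.43, limma adjusted p = 0.0024). The groups did not overlap for either gene. Tcf7, a TCF factor that is also a target, rose by 0.41 on the log2(FPKM + 1) scale. It had 4.37 ± 0.34 FPKM with nattokinase, against 3.05 ± 0.12 FPKM in control (SD, n = 3 each). The matricellular genes Ccn4 and Ccn5 and the hyaluronan receptor gene Cd44 had log2 fold changes of 0.23, 0.31 and 0.23. Their calls were lost in 3, 5 and 5 of the 6 limma fits without a single library (adjusted p up to 0.064, 0.10 and 0.13). All 3 were also lost without any filter, and that of Ccn5 in limma-voom. The call of Cd44 (limma adjusted p = 0.0496) was also lost after rescaling to protein-coding totals, with median-of-ratios or quantile scaling, with the 0.5 FPKM filter and with the replicate block. Fgf18, a growth factor gene, fell to 14.6 ± 0.50 FPKM with nattokinase, against 18.97 ± 1.09 FPKM in control (log2 fold change -0.36, limma adjusted p = 0.0031). Ccnd1, the cyclin D1 gene, had 6.98 ± 0.60 FPKM with nattokinase and 7.07 ± 0.29 FPKM in control (limma adjusted p = 0.90). Of the 12 targets under the filter, Sp5, Mmp7, Cdx1 and Msx2 had 0 reads in all 6 libraries and Lgr5, Nkd1 and Rnf43 at most 6 in any. Several of these targets, such as Myc, Jag1 and Cd44, also respond to other pathways.

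Outside the nucleus, each list had at most 1 called gene in each direction, beside 5.61% higher and 3.24% lower of all tested genes. Of 12 tested receptors and polarity genes Daam2, a formin, rose (log2 fold change 0.58, limma adjusted p = 0.0023). Daam2 had 14.3, 18.4 and 17.6 FPKM in nattokinase libraries, against 11.05, 10.8 and 10.7 FPKM in control libraries. Of 17 tested genes of Dishevelled and the destruction complex, Csnk1e, a kinase of Dishevelled, rose to 23.2 ± 0.26 FPKM with nattokinase, against 18.4 ± 0.47 FPKM in control (limma adjusted p = 0.0018), with 267 bases of exon shared with Gm16059. In the same list Amer1, a partner of Apc, fell to 10.9 ± 0.53 FPKM with nattokinase, against 13.3 ± 0.39 FPKM in control. The call of Amer1 was lost without nattokinase replicate 3 (limma adjusted p = 0.052). Ctnnb1, which encodes beta-catenin, had 91.4 ± 0.30 FPKM with nattokinase and 88.2 ± 3.43 FPKM in control (SD, n = 3 each; limma adjusted p = 0.55). Of 4 tested antagonists other than Sfrp and Dkk, Draxin, a secreted axon guidance protein, fell to 0.654 ± 0.11 FPKM with nattokinase, against 1.54 ± 0.053 FPKM in control (limma adjusted p = 0.0023). Its log2 fold change was -0.62 on the log2(FPKM + 1) scale and -1.25 in limma-voom. Draxin passed the filter only through the control libraries, where it is high, and without any filter its limma adjusted p was 0.024.

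In the remaining lists, too, the calls stand beside 5.61% higher and 3.24% lower of all tested genes. Of 5 tested R-spondins and partners Lgr6, an R-spondin receptor, rose by 0.28 on the log2(FPKM + 1) scale. Its call (limma adjusted p = 0.037) ended when any library but control replicate 1 was left out and after rescaling to protein-coding totals. Of 13 tested genes of the nuclear TCF complex Tcf7 rose and Aes, a Groucho-related corepressor, fell by 0.22 on the same scale (limma adjusted p = 0.043). That call, too, held only when control replicate 1 was the library left out, with adjusted p up to 0.15 otherwise. Of 5 tested genes of Wnt secretion the smallest p values were those of Gpc6 and Porcn, and neither passed. Wls, the carrier of Wnt proteins to the cell surface, had 34.4 ± 0.43 FPKM with nattokinase and 34.5 ± 1.37 FPKM in control (SD, n = 3 each). Gpc6, a glypican, had 3.84 ± 0.63 FPKM with nattokinase and 2.84 ± 0.10 FPKM in control, without overlap (limma adjusted p = 0.065). It was called higher by limma-voom (adjusted p = 0.021) and in limma without nattokinase replicate 1 (adjusted p = 0.0094). Porcn, the enzyme that attaches the lipid to Wnt proteins, had 1.15 ± 0.14 FPKM with nattokinase and 1.40 ± 0.15 FPKM in control (limma adjusted p = 0.35).

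**Figure D4:**
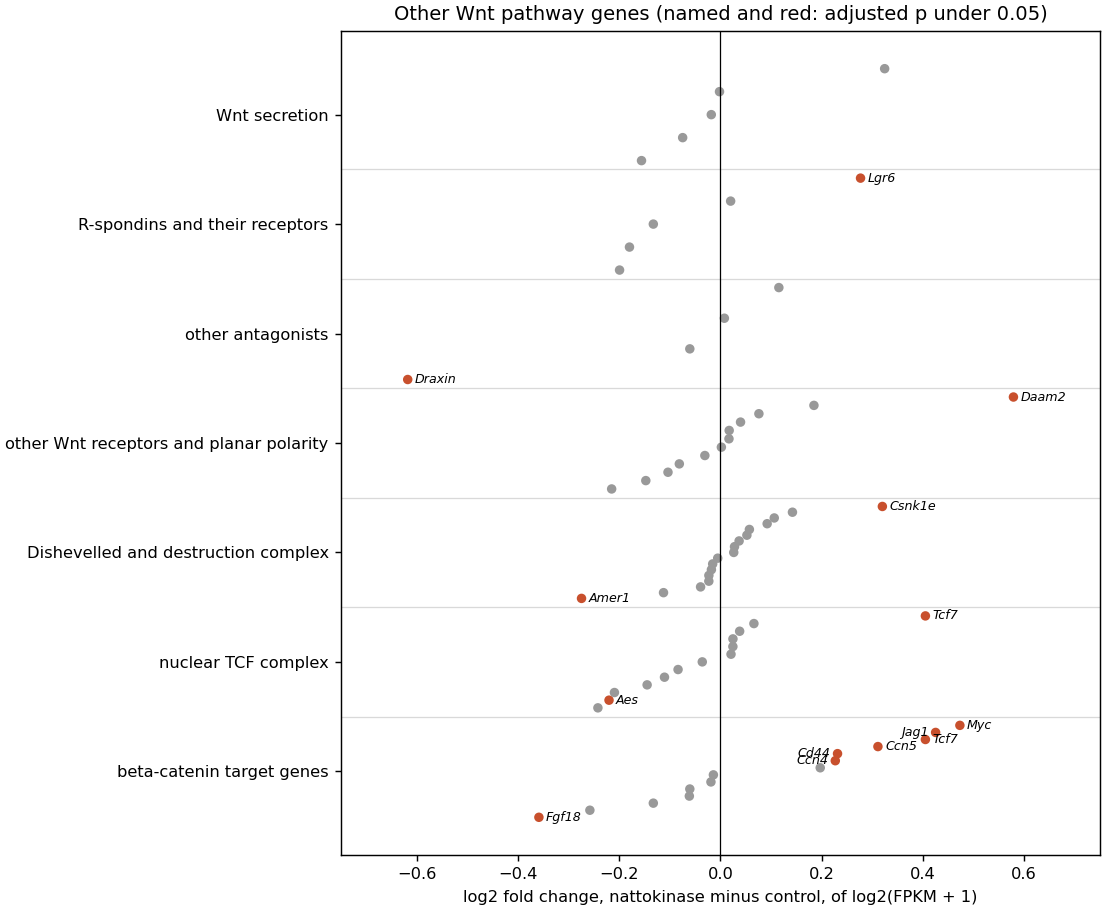
Log2 fold change of nattokinase over control on the log2(FPKM + 1) scale for the tested genes of 7 lists of other Wnt pathway genes, 1 point per gene, sorted by value within a list. Genes past the threshold are red and named, and among the named beta-catenin targets 6 lie to the right of 0 and Fgf18 to the left.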

How the data were processed

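RNA was sequenced from 3 nattokinase-treated and 3 untreated samples, grouped and numbered by their titles. Per the submitters' processing notes, the tools, with no roles given, included HISAT2 2.1.0, featureCounts 1.6.0, DESeq2 1.22.1 and Trimmomatic 0.38, and the build named is GRCh38, a human one, although the identifiers are from mouse. The authors deposited FPKM values per sample, found to be FPKM because each value times the merged exon length in GENCODE M21 (GRCm38) comes out in each library as a whole number of equal steps (100% of values, tolerance 0.05). These steps were taken as reads. Strand use in counting is not stated in the sources used here. The test was limma 3.58.1 in R 4.3.3 (intensity trend, robust prior, two-sided) on log2(FPKM + 1), which shrinks the change of scarce genes. Genes had at least 1 FPKM in at least 3 libraries, and the adjusted p threshold was 0.05 over 10913 genes. Alternatives were other filters, pseudocounts and scalings, limma-voom with trimmed-mean scaling on reads, a replicate block and leaving out each library. The fits without a library kept the genes that passed the filter on all 6 libraries.

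The set, the lists and the alternatives were chosen with earlier results of these data known. The text names every gene of the set and, from each list, the called genes up to 6, or otherwise the 2 smallest p values among those tested; Cd44, Ctnnb1, Wls, Ccnd1 and the targets named for few or 0 reads were chosen after their values were seen. Libraries were simulated from control means, with the same extra spread beyond counting error for every gene. On them limma recovered 30% of genes changed 1.25-fold, 90% at 1.5-fold and 98% at 2-fold among 10967 genes, and 8.62% of calls were false. These rates belong to that setting and need not hold for the real libraries. Replicates of a group differed by more than counting error (mean chi-square per gene 2.43 to 10.7), and control replicate 1 stood apart on the second principal component. Exon overlaps were found with bedtools 2.31.1, promoter sequences are RefSeq's, and figures were drawn with matplotlib.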

Additional observations from a re-analysis of the deposited data

How the results depend on the processing

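Over 16 alternatives Fzd4 kept its direction and its call in all, Wnt5a lost its call in 1, Wnt4 in 5 and Fzd7 in 7, and none of the 15 tested genes with a call changed direction. The number of lower genes of the set was 4, where 354 of 10913 tested genes were lower. It was 1 without the filter on low values, where 109 of 24549 were. There the unadjusted limma p was also higher, at 0.00080 for Wnt5a, 0.0071 for Wnt4 and 0.0069 for Fzd7. With the filter these were 0.00017, 0.0021 and 0.0021. The number of lower genes of the set was 2 to 3 when single libraries were left out, where 197 to 486 of 10913 were lower. The number of higher genes was 0, and 1 (Sfrp2) with the filter at 0.5 FPKM in 3 libraries and with limma-voom on reads, which admit it to the test. Of all genes tested there, 4.78% and 6.09% were called higher. The nattokinase libraries alone meet both filters, and without a filter limma gave Sfrp2 an adjusted p of 0.13. The number of higher genes of the set was 0 whichever library was left out, where 328 to 720 of 10913 genes were higher.

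Of all 10913 genes tested, 612 were higher and 354 lower. Without the filter these counts were 221 and 109 of 24549, and limma-voom called 553 of 12810 lower. Leaving out single libraries gave 328 to 720 higher and 197 to 486 lower of 10913. After rescaling to protein-coding totals 478 were higher and 497 lower, which puts the higher share of calls at 49.0%, beside 63.4% before rescaling. Of the other pathway genes 9 were higher and 4 lower. Without the filter 5 and 2 were, limma-voom called 8 lower, and leaving out single libraries gave 5 to 7 higher and 2 to 5 lower. Besides Gpc6, higher in 2 alternatives, the genes called lower only in alternatives were Ptk7 in 4, Id2 in 2, and Igfbp4, Tle3 and Cby1 in 1 each. Causes of these differences were not tested.

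Equal replicate numbers did not deviate together (correlations of -0.089, -0.044 and -0.059), and unequal numbers gave -0.043 to 0.094. With 3 libraries per group these values cannot decide whether the numbers pair the samples. With the replicate block 439 of 10913 tested genes were higher and 249 lower. There 3 genes of the set were lower, and Fzd7 had a limma adjusted p of 0.059. Depth limits the genes with fewer than 10 reads, among them Axin2 and the Dkk genes, where only large changes could be seen.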
